A study of Mus musculus with 56 samples.

Results

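Mitochondrial ribosomal proteins were followed as a group of 78 genes in the anterior hypothalamus of mice fed by day or by night. Members were the genes whose symbol begins with Mrpl or Mrps followed by a digit and which are not pseudogenes. Every one of the 78 in the table reached a value of 1 in 80% of the 56 mice or more, so no member was lost to the filter, which kept 16245 of the 17564 genes. The mice were C57BL/6J females, 9 weeks old, kept in 12 h of light and 12 h of darkness. Under day time-restricted feeding (DRF) food was given from ZT0 to ZT12, where ZT0 is lights on, and under night time-restricted feeding (NRF) from ZT12 to ZT24, for 7 days in both. Polyadenylated RNA was sequenced from 4 mice per regimen every 4 h from ZT0 to ZT24, which gave 7 time points and 14 groups, and the ZT24 mice were not the ZT0 mice. No group had free access to food, so both regimens are restricted feeding.

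Mitochondria keep their own ribosome, which translates the few proteins encoded by mitochondrial DNA, all of them subunits of the respiratory chain and ATP synthase. The ribosomal RNAs come from the mitochondrial genome, but every protein of the large and the small subunit is encoded in the nucleus, made in the cytosol and imported. The organelle therefore depends on many nuclear genes being expressed in proportion. The brain relies heavily on oxidative phosphorylation, and neurons carry many mitochondria. Of the members, 51 encode large subunit proteins, including Mrps18a and Mrps30, which carry a small subunit name but sit in the large subunit. A further 26 encode small subunit proteins. Mrps36 is counted apart, because its product belongs to the 2-oxoglutarate dehydrogenase complex of the citric acid cycle.

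Levels are given as CPM, the reads of a gene per 1000000 reads after normalization between libraries, recovered from the deposited values. The normalized library size was 29591266 to 34493344 reads per mouse. Amplitudes and differences are on the scale of log2(CPM + 1). The tissue expressed all 10 anterior hypothalamic markers examined in every mouse, among them Avp at 61.5 to 317 CPM and Six6 at 5.80 to 22.6 CPM. Markers of the neighbouring lateral hypothalamus varied widely, with Pmch at 70.9 to 809 CPM, and their part in the results was not tested. As this is bulk tissue, fewer cells of a type and less RNA per cell cannot be told apart. The 2 libraries of DRF replicates 3 and 4 at ZT16 stood apart in the trend of expression with GC content, by 5.04 and 7.14 robust standard deviations, against at most 2.40 in the other 54. The fitted DRF peak times and the main counts of calls between regimens are given with and without them. DRF levels, amplitudes and cosine fits of single genes, and the DRF SD between mice, include them.

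The 8 members followed mouse by mouse below lie on different chromosomes or apart from each other (GRCm38 coordinates, RefSeq): Mrpl54 (gene ID 66047) at chr10:81264722-81266926, Mrpl2 (gene ID 27398) at chr17:46646172-46650132, Mrps18b (gene ID 66973) at chr17:35910380-35916440, Mrpl35 (gene ID 66223) at chr6:71812997-71823784, Mrps6 (gene ID 121022) at chr16:92058336-92112227, Mrpl42 (gene ID 67270) at chr10:95480805-95501949, Mrpl36 (gene ID 94066) at chr13:73328503-73332178 and Mrps36 (gene ID 66128) at chr13:100735940-100744659. All members were expressed at moderate levels. The mean over the 56 mice ranged from 5.93 CPM for Mrps28 to 88.2 CPM for Mrps25, both small subunit proteins. Per kilobase of exon, the scale on which genes can be compared, Mrpl41 was highest at 69.0 CPM per kb, followed by Mrpl10 at 33.5 and Mrpl27 at 33.5, which were level with each other. Mrpl10 belongs to the stalk of the large subunit. The lowest were Mrpl33 at 1.203, Mrps35 at 1.81 and Mrpl47 at 2.61 CPM per kb. Their annotated exons are long (7326, 8631 and 4419 bases for these 3), which lowers the level per length. Within groups, the median SD between mice was 0.080 in NRF and 0.104 in DRF for members, and 0.0965 and 0.125 for all genes, on the log2 scale.

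The promoters are shown because many members share letters there that the choice by name did not use. RefSeq windows (GRCm38.p6) from 250 bases before to 50 bases after the start of transcription were at hand for 69 members and 27025 genes in all. The 6 motifs searched on both strands were CCGGAAG (ETS factors such as GABPA), the motif of NRF1 (nuclear respiratory factor 1, a protein and not the regimen), AAGATGGCG (YY1), the E-box CACGTG, the D-box TTATGNAA and the ROR element NNTAGGTCA. GABPA, NRF1 and YY1 are known regulators of nuclear genes for mitochondrial proteins, and the last 3 motifs are bound by circadian clock factors. CCGGAAG was in the window of 26 of 69 members (37.7%), against 16.8% of the 12810 tested genes with a window and 9.93% of all genes with a window. The NRF1 motif was in 13 members (18.8%, against 9.60% of tested genes and 5.19% of all). The YY1 motif was in 8 (11.6%, against 2.87% and 1.64%). The clock motifs were not more frequent, with the E-box in 5 members (7.25%, against 10.9% and 8.09%), and the D-box and the ROR element in 1 each (1.45%, against 2.69% and 2.34% of tested genes and 3.99% and 2.94% of all). These are matches of letters and not sites shown to be bound.

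The 5 examples below are members with a rhythm in NRF, each as the 150 bases before the start on its own strand, with the motif letters in capitals. Mrpl52 (chr14:54426759-54426908, plus strand) and Mrpl43 (chr19:45006443-45006592, minus strand), which peaked by day, hold 1 and 2 CCGGAAG motifs in these bases, read on either strand. Mrpl2 (chr17:46646071-46646220, plus strand), also a day member, holds an E-box and no CCGGAAG. Mrpl36 (chr13:73330859-73331008, plus strand) and Mrpl45 (chr11:97315566-97315715, plus strand) peaked by night, and hold an E-box beside a YY1 motif and a pair of NRF1 motifs.
Mrpl52: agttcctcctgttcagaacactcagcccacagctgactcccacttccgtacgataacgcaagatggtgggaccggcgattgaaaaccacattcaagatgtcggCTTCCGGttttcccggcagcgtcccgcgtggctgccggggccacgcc
Mrpl43: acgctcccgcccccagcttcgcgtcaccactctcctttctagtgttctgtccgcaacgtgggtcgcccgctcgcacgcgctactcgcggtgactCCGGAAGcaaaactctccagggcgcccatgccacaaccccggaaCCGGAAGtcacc
Mrpl2: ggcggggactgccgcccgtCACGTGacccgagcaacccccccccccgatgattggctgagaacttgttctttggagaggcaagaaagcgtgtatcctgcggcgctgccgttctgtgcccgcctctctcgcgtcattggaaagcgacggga
Mrpl36: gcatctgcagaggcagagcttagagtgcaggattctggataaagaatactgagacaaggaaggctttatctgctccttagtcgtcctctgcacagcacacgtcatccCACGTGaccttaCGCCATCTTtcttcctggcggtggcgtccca
Mrpl45: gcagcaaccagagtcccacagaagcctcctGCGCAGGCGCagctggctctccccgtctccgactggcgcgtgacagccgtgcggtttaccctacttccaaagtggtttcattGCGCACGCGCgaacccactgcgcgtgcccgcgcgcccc
Among members with a call and a window, CCGGAAG was in 10 of 17 with a day peak and 0 of 4 with a night peak, against 16 of 48 members without a call. The YY1 motif was in 0 of 17 and 2 of 4, against 6 of 48. With so few night members these counts are a description.

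The first comparison asked which transcripts followed a daily rhythm under each regimen. In NRF, 26 of the 78 members were called rhythmic (JTK_CYCLE and the Lomb-Scargle periodogram combined, Benjamini-Hochberg adjusted over 16245 transcripts), or 33.3% of members against 27.5% of all transcripts. The share of members was thus near the background. They comprised 18 of 51 large subunit and 8 of 26 small subunit genes, and 16 of 48 members with a bacterial counterpart and 10 of 29 that are specific to mitochondria. In DRF, 0 of 78 were called, against 0.806% of all transcripts. At an unadjusted p under 0.05 in the same test there were 3 members in DRF and 31 in NRF. Of 16244 genes, 697 in DRF and 5607 in NRF reached that p. JTK_CYCLE alone called 23 members in NRF (26% of all transcripts) and 0 in DRF (0.376%). The Lomb-Scargle periodogram alone called 0 of all transcripts in both regimens. A 24-h cosine in limma called 25 members in NRF (27.7% of all genes) and 2 in DRF (3.99% of all genes).

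The rhythmic members peaked mostly by day. Of the 26 called in NRF, 21 peaked between ZT4 and ZT10, in the light phase when NRF mice had no food, and 5 between ZT17 and ZT24. Over all 4466 transcripts called in NRF and fitted in the same way, 28.9% peaked between ZT4 and ZT10 and 57.6% between ZT17 and ZT24. Of all 78 members, called or not, 54 (69.2%) had their fitted NRF peak between ZT4 and ZT10, against 34.3% of all genes. These windows were set after the peak times were seen and are a description. Cytosolic ribosomal proteins and nuclear-encoded respiratory chain and ATP synthase subunits showed a like timing, with 22 of 23 and 16 of 17 called genes peaking between ZT4 and ZT10. Between ZT17 and ZT24 they had 1 of 23 and 0 of 17.

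**Figure D1:**
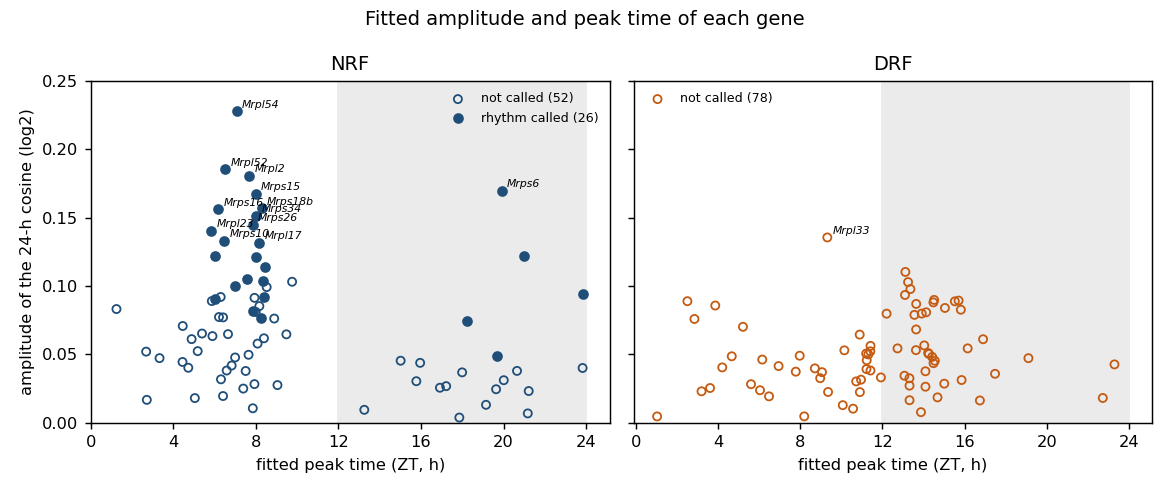
Amplitude of the fitted 24-h cosine (log2 scale, vertical axis) against fitted peak time (ZT in hours, horizontal axis) for each of the 78 genes, in NRF (left) and DRF (right), filled where a rhythm was called; grey marks the dark phase. In NRF the 26 called genes form a day cluster of 21 and a scattered night group of 5, and in DRF 0 genes are filled.

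For the genes followed mouse by mouse for their NRF rhythm, the 2 times shown are those of the highest and lowest NRF mean. This choice favours a gap in NRF and overlap in DRF. Mrpl54, a large subunit protein, had the strongest rhythm among members. In NRF at ZT8 its level was 18.5, 19.8, 18.7 and 20.4 CPM in the 4 mice, and at ZT20 it was 13.0, 12.9, 12.8 and 14.4 CPM. All ZT8 mice were above all ZT20 mice, and the means were 19.4 ± 0.917 and 13.3 ± 0.737 CPM (SD). In DRF at ZT8 it was 17.95, 15.1, 14.3 and 17.7 CPM, and at ZT20 15.8, 12.3, 15.2 and 15.8 CPM, so that the mice of the same 2 times overlapped. The NRF amplitude was 0.23 ± 0.036 (SE) with a peak at ZT7.07 ± 0.544 h, a peak-to-trough fold of 1.37 (adjusted p = 1.59e-06, JTK_CYCLE with Lomb-Scargle). In DRF the amplitude was 0.028.

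Mrpl2, which forms part of the catalytic core of the large subunit, behaved alike. Its NRF level at ZT4 was 24.8, 29.98, 25.2 and 25.2 CPM, and at ZT20 20.3, 20.6, 19.9 and 18.5 CPM. The mice of these 2 times did not overlap. In DRF it was 22.9, 24.3, 23.1 and 21.9 CPM at ZT4 and 21.5, 20.9, 19.96 and 21.2 CPM at ZT20, which did not overlap either, at a smaller gap. The NRF amplitude was 0.18 ± 0.029 with a peak at ZT7.68 (adjusted p = 4.82e-06, JTK_CYCLE with Lomb-Scargle), and the DRF amplitude was 0.041.

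Mrps18b is one of 3 proteins related to bacterial S18, with Mrps18a and Mrps18c. Its NRF level at ZT4 was 20.2, 24.04, 19.98 and 20.01 CPM, and at ZT24 16.1, 16.1, 16.2 and 16.6 CPM, without overlap. In DRF the ZT4 mice had 19.1, 19.0, 19.2 and 18.5 CPM and the ZT24 mice 18.2, 19.0, 19.3 and 17.6 CPM, which overlapped. The NRF amplitude was 0.16 ± 0.026 with a peak at ZT8.27 (adjusted p = 5.96e-06, JTK_CYCLE with Lomb-Scargle). The other members of the family were not called, with NRF amplitudes of 0.042 ± 0.023 for Mrps18a and 0.099 ± 0.036 for Mrps18c.

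Another 5 day members were among the 10 smallest p-values in NRF. Mrpl11, of the stalk base of the large subunit, had an amplitude of 0.11 ± 0.021, and Mrps15, of the small subunit, 0.17 ± 0.033. Mrpl17 had 0.13 ± 0.026, Mrps34 0.15 ± 0.036 and Mrpl52 0.19 ± 0.039. Their fitted peaks lay between ZT6.52 (Mrpl52) and ZT8.45 (Mrpl11). Across the 21 day members the peaks ran from ZT5.84 (Mrpl23) to ZT8.45, and the peak-to-trough folds from 1.11 (Mrpl3) to 1.37, so the changes were small for each gene. Mrpl10 (amplitude 0.10 ± 0.023) and Mrpl58, a ribosome-bound peptidyl-tRNA hydrolase that frees stalled chains (0.12 ± 0.027), were also day members. The other 11 day members were Mrps16, Mrps26, Mrpl23, Mrps10, Mrps28, Mrpl55, Mrpl38, Mrpl43, Mrpl48, Mrpl53 and Mrpl3, in descending order of NRF amplitude from 0.16 to 0.077. Mrpl12, the stalk protein that is also known to bind the mitochondrial RNA polymerase, was not called in NRF (amplitude 0.052 ± 0.028), nor was Mrps30 (0.0038 ± 0.023).

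The 5 night members were Mrpl35, Mrps6, Mrpl19, Mrpl36 and Mrpl45. Mrpl35 in NRF had 36.04, 35.1, 34.04 and 36.9 CPM at ZT20 and 29.99, 30.1, 28.9 and 30.5 CPM at ZT8, without overlap. In DRF it had 33.3, 31.1, 33.5 and 34.5 CPM at ZT20 and 30.5, 32.1, 32.1 and 29.5 CPM at ZT8, which overlapped. Its NRF amplitude was 0.12 ± 0.015 with a peak at ZT21.0 ± 0.454 h (adjusted p = 6.00e-06, JTK_CYCLE with Lomb-Scargle). Mrps6, a small subunit protein with a bacterial counterpart, had 26.0, 25.3, 23.8 and 25.8 CPM at ZT20 and 20.4, 19.7, 19.1 and 21.8 CPM at ZT8 in NRF. Its amplitude was 0.17 ± 0.029 with a peak at ZT19.9 (adjusted p = 1.78e-05, JTK_CYCLE with Lomb-Scargle). The amplitudes of Mrpl19, Mrpl36 and Mrpl45 were 0.049, 0.094 and 0.074. Between the highest and lowest DRF mean of each gene, the mice of Mrpl2, Mrpl35 and Mrps6 did not overlap. Those of Mrpl54 and Mrps18b did. The highest DRF mean was at ZT16, with the 2 libraries that stood apart, for Mrpl54 (17.1 ± 2.98 CPM, SD) and Mrps6 (25.5 ± 1.42 CPM). The fold from lowest to highest mean was larger in DRF than in NRF for Mrps6 (1.33 against 1.25). It was smaller in DRF for Mrpl54, Mrpl2, Mrps18b and Mrpl35.

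**Figure D2:**
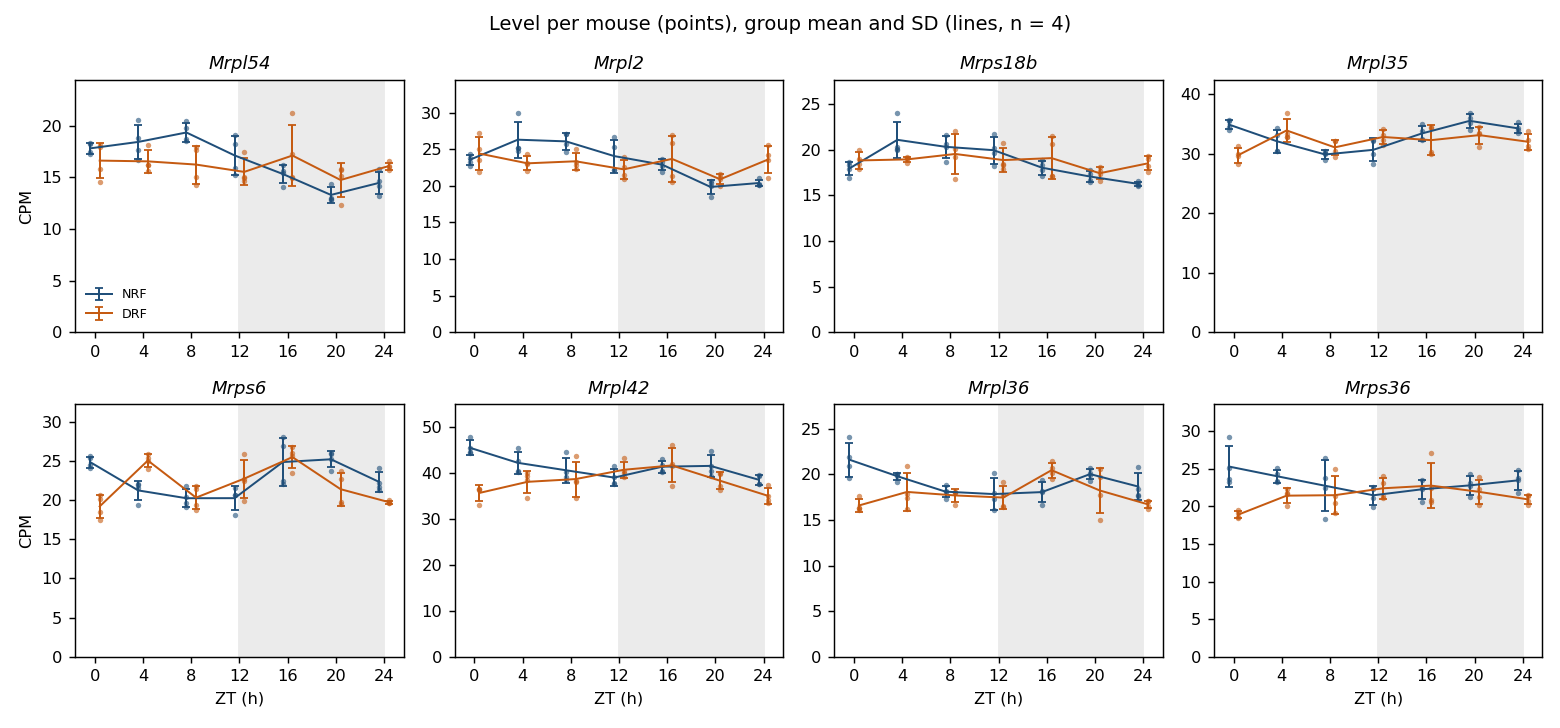
Level in CPM (vertical axis, from 0) of 8 genes in each mouse (points) with the group mean and SD of 4 mice (lines), against ZT in hours, for NRF (blue) and DRF (orange); grey marks the dark phase. Mrpl54, Mrpl2 and Mrps18b are highest by day in NRF, Mrpl35 and Mrps6 by night, and at ZT0 the DRF mice of Mrps6, Mrpl42, Mrpl36 and Mrps36 lie below the NRF mice.

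The group as a whole was summarised for each mouse by the median deviation of the 78 genes from their own means, on the log2 scale and with no test. In NRF the mean of the 4 mice was 0.076 at ZT0, 0.087 at ZT4 and 0.060 at ZT8, and it was 0.012 at ZT12, 0.020 at ZT16, -0.031 at ZT20 and -0.069 at ZT24. At ZT4 in NRF, 73 of 78 members were above their own mean, and at ZT24, 8 were. In DRF the mean was -0.024 at ZT0, 0.0036 at ZT4, -0.035 at ZT8, 0.0054 at ZT12, 0.056 at ZT16, -0.049 at ZT20 and -0.072 at ZT24. At ZT16 the DRF mice had 0.183 and 0.089 in the 2 libraries that stood apart and -0.021 and -0.029 in the others, so the DRF high point was that of these 2 libraries. In those libraries the summed level of 4 neuronal markers was 2563 to 2654 CPM, against 2563 to 3634 over all mice. That of 4 astrocyte markers was 1044 to 1048 CPM, against 1044 to 1248 over all mice. For 4 endothelial markers it was 136 to 139 CPM, against 99.4 to 147. The oligodendrocyte, microglial and blood markers reached neither end of their range. The part of these markers in the result was not tested. Of the 78 fitted DRF peaks, 52 fell between ZT10 and ZT17 (66.7%, against 32.8% of all genes). Without these 2 libraries 31 did (39.7%, against 25.8%). Between ZT4 and ZT10 there were 16 with them (20.5%, against 22.9% of all genes) and 36 without them (46.2%, against 30.1%). The fullest DRF window without them was thus the same as in NRF. The trend of expression with transcript length also moved with the summary. Its mean slope, in log2 units per SD of log2 length, was -0.021 in NRF at ZT0, -0.040 at ZT4 and 0.048 at ZT24. After removal of the library trends with length, GC content and level, the NRF summary was 0.042 at ZT0, 0.046 at ZT4 and -0.041 at ZT24, the same order at a smaller size. With these trends removed, 34 members were called rhythmic in NRF, against 28.2% of all transcripts, and 23 of them were among the 26.

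**Figure D3:**
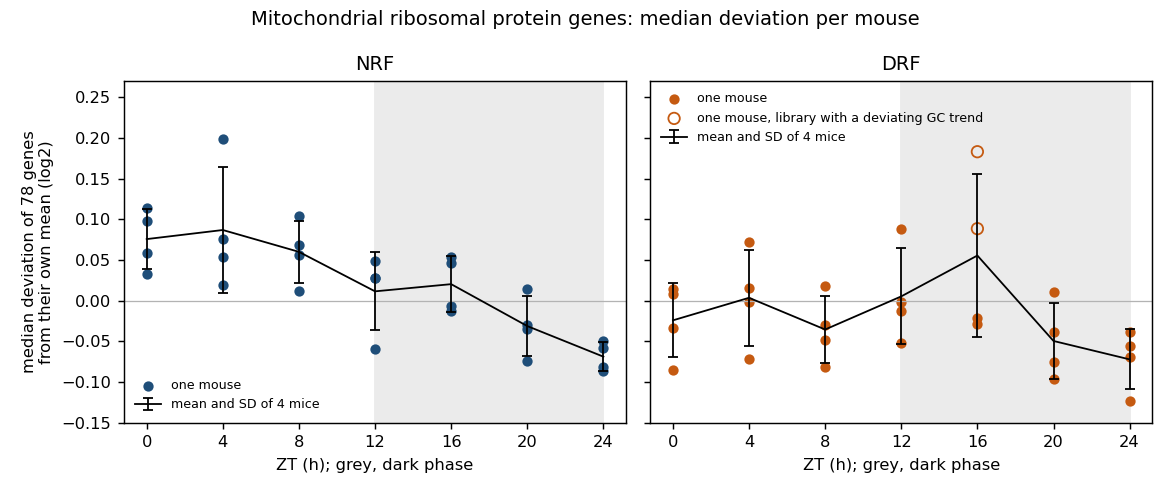
Median deviation of the 78 genes from their own means (log2, vertical axis) in each mouse against ZT in hours, for NRF (left) and DRF (right), with the mean and SD of 4 mice; open circles are the 2 DRF libraries with a deviating GC trend. In NRF the values fall from ZT0, ZT4 and ZT8 to ZT24, and in DRF the high mean at ZT16 comes from the 2 open circles.

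**Figure D4:**
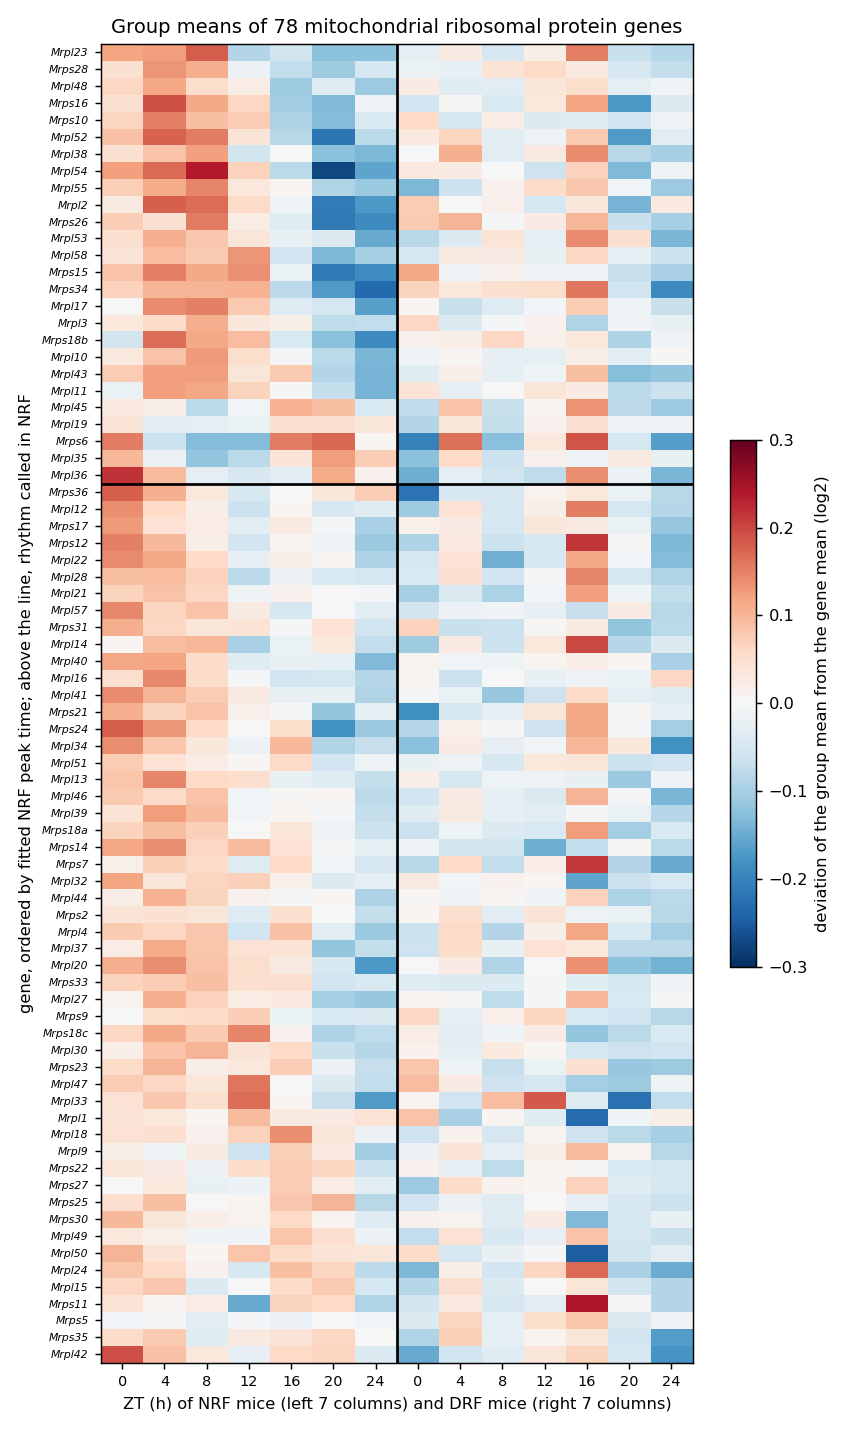
Deviation of each group mean from the mean of its gene (log2, colour scale from -0.3 to 0.3) for the 78 genes (rows) at 7 time points in NRF (left 7 columns) and DRF (right 7 columns). Rows above the horizontal line are the 26 genes called rhythmic in NRF, ordered by peak time, and most rows are red at ZT0 to ZT8 and blue at ZT24 in NRF.

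ZT0 and ZT24 are the same time of day, sampled in other mice, and in NRF they differed. In NRF, 7 members were lower at ZT24 than at ZT0 (limma, adjusted over 16244 genes) and 0 higher, against 2.17% of all genes called and 0.806% called lower. They were Mrpl20, Mrpl40, Mrpl42, Mrpl41, Mrps15, Mrpl43 and Mrps34, with differences of -0.22 to -0.30. The direction was shared widely, with 76 of 78 members lower and a median difference of -0.14, against -0.0052 over all genes. It was not particular to the members. Of cytosolic ribosomal protein genes 84 of 85 were lower (median -0.17), and of respiratory chain and ATP synthase genes 79 of 85 (median -0.18). The summed level of the 10 anterior hypothalamic markers was also lower at ZT24 in NRF, at 633 to 743 CPM against 804 to 936 CPM at ZT0, without overlap, and its part in the result was not tested. In DRF 0 members were called between these times (0.443% of all genes), and the median was -0.042. There, 11 of 78 members and 2433 of 16244 genes had an unadjusted p under 0.05 (limma). Calls in NRF numbered 1 with the library trends removed and 0 without any of the 4 replicates. Those over all genes in these settings are not given here. Both times enter the NRF rhythm test, whose calls numbered 21 without ZT0 and 16 without ZT24. Over all transcripts they numbered 3716 and 2936, against 4467 with all times.

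The 24-h terms of the regimens were then compared with each other in limma. The rhythm differed for 11 of 78 members (14.1%, against 10.9% of 16244 genes), 9 of them in the large subunit, 1 in the small subunit and Mrps36. By adjusted p they were Mrpl35 (0.0051), Mrpl17 (0.0082), Mrpl42 (0.012), Mrps6 (0.012), Mrpl36 (0.016), Mrps36 (0.017), Mrpl54 (0.028), Mrpl2 (0.029), Mrpl48 (0.037), Mrpl21 (0.046) and Mrpl23 (0.046) in limma. Without the 2 libraries that stood apart 8 were called, and Mrpl48, Mrpl21 and Mrpl23 were not. Without replicate 1, 3 or 4 the calls numbered 1, 1 and 2, and without replicate 2 they numbered 10. Calls over all genes in these settings are not given here, so the counts describe the members alone. Of the 26 members called in NRF, 25 had the larger fitted amplitude in NRF, which the call itself favours. Among all 78, 49 did (62.8%, against 61.8% of all genes), with median amplitudes of 0.065 in NRF and 0.046 in DRF.

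The DRF rhythm with the smallest p was that of Mrpl42, a large subunit protein without a bacterial counterpart, at an amplitude of 0.10 ± 0.024 and a peak at ZT13.2 (adjusted p = 0.074, JTK_CYCLE with Lomb-Scargle). It was not called there, but it was by the 24-h cosine (adjusted p = 0.0193, limma) and without ZT4 (adjusted p = 0.0291, JTK_CYCLE with Lomb-Scargle). Over its other alternatives the adjusted p of the JTK_CYCLE and Lomb-Scargle tests was 0.052 to 1. Mrpl24 and Mrpl55, next in order, had DRF amplitudes of 0.11 ± 0.032 and 0.098 ± 0.029 with adjusted p = 0.66 and 0.91 (JTK_CYCLE with Lomb-Scargle). By the 24-h cosine Mrpl24 was called (adjusted p = 0.041, limma) and Mrpl55 was not (adjusted p = 0.060, limma). Mrpl21 and Mrps36 had 0.083 ± 0.026 and 0.079 ± 0.029. Each of these genes had its highest DRF mean at ZT16, the time of the 2 libraries that stood apart. It was 41.6 ± 3.70 CPM (SD) for Mrpl42 and 29.5 ± 3.31 CPM for Mrpl24. The amplitudes and cosine calls given here include these libraries.

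DRF was also compared with NRF at each time. ZT0 is the start of the light phase, when DRF mice were given food and NRF mice lost it. At ZT0, 7 members were lower in DRF and 0 higher (limma, 8.97% of members, against 4.41% of all genes called and 2.07% called lower). They were Mrpl42, Mrpl36, Mrps6, Mrps36, Mrpl35, Mrpl34 and Mrpl12. Of the summed tissue and cell type markers, only the endothelial ones did not overlap between the same mice. The summed level of 4 endothelial markers was 125.4 to 131.7 CPM in NRF and 102 to 109 CPM in DRF at ZT0, without overlap. That of 4 oligodendrocyte markers was 4631 to 5267 CPM and 3232 to 4661 CPM, which overlapped slightly. Their part in the ZT0 differences was not tested. At ZT4 Mrpl17 was lower and Mrps6 higher in DRF (2 members, against 3.86% of all genes), and leaving out any replicate number removed both calls. The remaining times gave 0 members at ZT8 (0.111% of all genes), ZT12 (1.48%), ZT20 (1.12%) and ZT24 (0.326%). At an unadjusted p under 0.05 (limma) there were 17, 5, 8 and 7 of 78 members. Of 16244 genes, 2158, 2685, 2212 and 1314 reached that p at these times. At ZT16, 8 members were called, against 19.9% of all genes. On the log2 scale Mrps34 (0.23), Mrpl14 (0.21) and Mrpl48 (0.16) were higher in DRF, and Mrpl50 (-0.32), Mrpl1 (-0.29), Mrpl18 (-0.20), Mrps30 (-0.20) and Mrpl3 (-0.11) were lower. Without the 2 libraries that stood apart, 0 were called at ZT16. Calls over all genes without these libraries or without a replicate are not given here. The median member difference was -0.10 at ZT0, -0.098 at ZT4 and -0.075 at ZT8, against values within 0.004 of 0 over all genes. Respiratory chain and ATP synthase genes had medians of -0.15, -0.081 and -0.11 at these times. Those of cytosolic ribosomal protein genes were -0.025, -0.055 and -0.060, so the direction was not particular to the members. The median member difference was -0.019 at ZT12, 0.029 at ZT16 (with the 2 libraries that stood apart) and -0.015 at ZT20. At ZT24, the same time of day as ZT0 in other mice, it was 0.0035, with 40 members higher and 38 lower. The lower level at ZT0 was thus not seen at ZT24.

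Mrps36 had the largest difference at ZT0. Its level was 29.2, 25.1, 23.3 and 23.6 CPM in NRF and 18.5, 19.5, 18.5 and 19.0 CPM in DRF. All DRF mice were below all NRF mice, a fold of 0.760 (log2 difference -0.40 ± 0.078, adjusted p = 0.0013 in limma). Mrpl36, which belongs to the proteins retained from bacteria, had 21.9, 20.9, 19.6 and 24.1 CPM in NRF and 17.6, 16.1, 16.3 and 16.3 CPM in DRF, also without overlap (log2 difference -0.36 ± 0.070). Mrpl42 had 47.7, 45.5, 44.3 and 44.5 CPM in NRF and 36.6, 36.5, 33.1 and 36.4 CPM in DRF, the smallest p of the 7 (log2 difference -0.34 ± 0.058, adjusted p = 0.000183 in limma). Mrps6 stood at 25.6, 25.3, 24.1 and 24.4 CPM in NRF and 17.5, 20.6, 18.5 and 20.2 CPM in DRF. At ZT4 its order turned, with 21.9, 22.1, 21.6 and 19.4 CPM in NRF and 23.95, 25.4, 25.03 and 25.9 CPM in DRF. Mrps6 was thus lower in DRF at ZT0 and higher 4 h later (log2 differences -0.36 ± 0.070 and 0.23 ± 0.070).

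Averaged over the 7 time points, 9 members were lower in DRF and 0 higher (limma, 11.5% of members, against 10.3% of all genes called and 4.83% called lower). They were Mrpl42, Mrps14, Mrpl18, Mrpl50, Mrps36, Mrpl36, Mrps25, Mrpl39 and Mrps23. The differences were small, from -0.12 ± 0.029 for Mrps14 (a fold of 0.919) to -0.052 ± 0.016 for Mrpl39 (0.964). In all, 71 of 78 members were lower in DRF, with a median of -0.034, against 51.8% and -0.0022 over all genes. The summed level of the 78 genes was 2092 to 2526 CPM in NRF (median 2271) and 2046 to 2511 CPM in DRF (median 2192), so the mice of the regimens overlapped widely. Respiratory chain and ATP synthase genes stood close to the members (77 of 85 lower, median -0.039), and of cytosolic ribosomal protein genes 40 of 85 were lower (median 0.0030). The differences between these groups were not tested. With the library trends removed, 1 member was called (7.69% of all genes) and 0 of the 9 remained. Without the 2 libraries that stood apart, 17 were called (10.2% of all genes), all 9 among them. Without replicate 1, 2, 3 or 4 the calls numbered 2, 6, 4 and 4, and those over all genes are not given here.

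**Figure D5:**
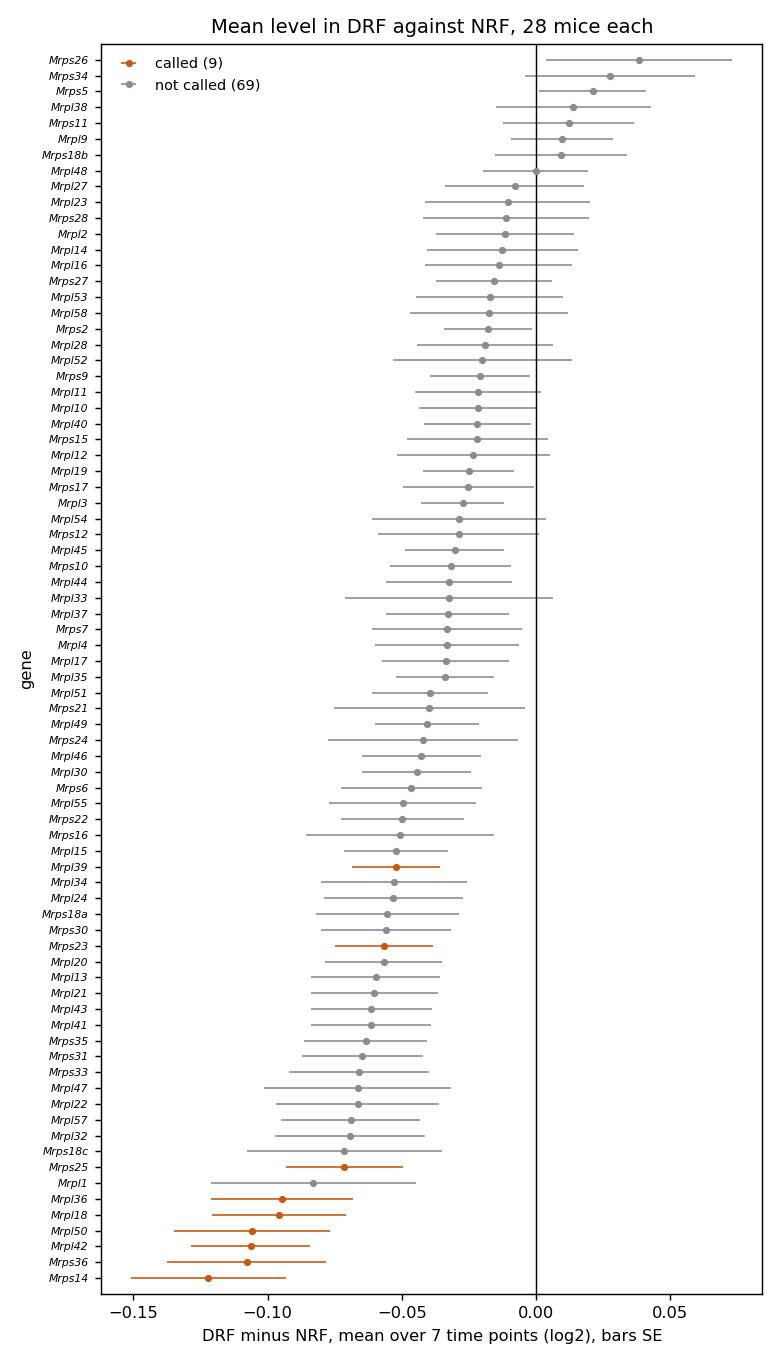
Difference in mean level, DRF minus NRF, over 7 time points (log2, horizontal axis, bars SE) for each of the 78 genes (rows, ordered by the difference), from 28 mice per regimen, with the 9 called genes in orange. Most genes lie to the left of 0, and the called genes lie between -0.12 and -0.052.

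Other genes of mitochondrial translation were read from lists by function. Over all genes, 27.5% were called rhythmic in NRF, 0.806% in DRF, and 10.9% for the rhythm difference. Of 5 mitoribosome proteins with other names, 2 were rhythmic in NRF and 0 in DRF. Ptcd3, a pentatricopeptide protein of the small subunit, peaked at ZT8.52 (amplitude 0.079 ± 0.015) and differed between regimens (limma, adjusted p = 0.035). Aurkaip1, also of the small subunit, peaked at ZT9.56 (0.087 ± 0.022). Dap3 (0.041 ± 0.020), a GTP-binding small subunit protein, Gadd45gip1 (0.034 ± 0.027) and Chchd1 (0.088 ± 0.028) were not called. Of 17 translation factors, 6 were rhythmic in NRF (35.3%), 0 in DRF and 5 differed in rhythm (29.4%). Of the 6, 4 peaked between ZT17 and ZT24 (66.7%, against 57.6% of all transcripts called in NRF). The other 2 peaked between ZT4 and ZT10 (33.3%, against 28.9%). Of all 17 fitted peaks 6 and 9 fell in these windows (35.3% and 52.9%, against 36.8% and 34.3% of all genes). The 3 named by their p-values peaked by night, with the release factor Mtrf1l at ZT19.4 (0.17 ± 0.024), the elongation factor Gfm1 at ZT19.3 (0.083 ± 0.017) and the ribosome recycling factor Mrrf at ZT22.6 (0.094 ± 0.016).

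Of 27 assembly factors, 6 were rhythmic in NRF (22.2%, against 27.5% of all genes), 0 in DRF and 3 differed in rhythm (11.1%, against 10.9%). Trub2, a pseudouridine synthase, peaked at ZT7.92 (0.14 ± 0.018), and Mterf3 at ZT22.1 (0.10 ± 0.015). Mettl15, a methyltransferase for the small ribosomal RNA, differed in rhythm (limma, adjusted p = 0.045) without a call in NRF (0.093 ± 0.037). Of 12 genes for transcription of mitochondrial DNA and its regulators, 5 were rhythmic in NRF (41.7%), 0 in DRF and 2 differed in rhythm (16.7%). The latter were Gabpa, whose protein binds CCGGAAG, with a peak at ZT20.4 (0.23 ± 0.025), and Nrf1 at ZT21.9 (0.15 ± 0.022). In these 2 genes the NRF peak was at night, unlike that of the 21 day members. All 5 called genes of this list peaked between ZT17 and ZT24, as did 57.6% of all transcripts called in NRF. Gabpa in DRF had an amplitude of 0.037. Of the 8 genes of these lists named for a rhythm difference, Trub2 and Nrf1 kept the call without any replicate. Ptcd3, Gfm1 and Gabpa lost it without replicate 1, 3 or 4 (not without 2), and Mrrf, Mtrf1l and Mettl15 lost it without any one of the 4. Mrrf also lost it without the 2 libraries that stood apart (adjusted p = 0.053, limma).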

How the data were processed

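The members and lists were chosen with earlier results of these data known. RNA of 56 mice was sequenced from the anterior hypothalamus, and per the labels and the study's methods the reads were aligned with HISAT2 and Bowtie2 to GRCm38.p6, counted with RSEM and normalized by TMM in edgeR. The value the authors deposited per gene and mouse, named TPM, behaves as a score proportional to log2(CPM + 1) divided by exon length, so it was inverted. The exon lengths came from GENCODE vM21, and members came out as whole reads with the annotated length (64), with a searched length (4) or to 2 decimals only (10). Rhythm in each regimen was tested on the deposited score by JTK_CYCLE and the Lomb-Scargle periodogram (20 to 28 h), combined by Fisher's method. Other comparisons used limma 3.58.1 (R 4.3.3) with a trend on log2(CPM + 1). All p-values were Benjamini-Hochberg adjusted over all genes, with calls under 0.05. The analysis was tested on simulated data. Named genes were the 10 smallest p for the NRF rhythm and for the rhythm difference, the 5 smallest for the DRF rhythm and the mean level, the 3 highest and 3 lowest per kb, and 8 genes of known role. Genes called in single-time contrasts are named in full. In the other lists, the 2 smallest p of each test were named. The 56 columns used were all those in the table. Alternatives changed the rhythm test, the pseudocount, the filter, the library trends and the mice or times entered.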

Additional observations from a re-analysis of the deposited data

Results flagged for a closer look

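The rhythm of 11 members differed between the regimens by the limma test of the 24-h terms, with adjusted p of 0.0051 (Mrpl35), 0.0082 (Mrpl17), 0.012 (Mrpl42), 0.012 (Mrps6), 0.016 (Mrpl36), 0.017 (Mrps36), 0.028 (Mrpl54), 0.029 (Mrpl2), 0.037 (Mrpl48), 0.046 (Mrpl21) and 0.046 (Mrpl23). In 8 genes given mouse by mouse and in the median deviation of all members, 1 mouse lay far from the other 3 in 10 of 126 groups, where chance gives about 5% of groups. In NRF these mice were at ZT4 for Mrpl2 (29.98 CPM), Mrps18b (24.04 CPM) and Mrps6 (19.4 CPM), at ZT20 for Mrpl54 (14.4 CPM) and at ZT24 for Mrpl2 (21.1 CPM). The high Mrpl2 and Mrps18b values at ZT4 came from the same mouse, replicate 2, whose median deviation over the 78 genes was 0.198. In DRF they were at ZT0 for Mrpl42 (33.1 CPM) and Mrpl36 (17.6 CPM), at ZT4 for Mrpl35 (36.8 CPM), at ZT8 for Mrpl36 (16.6 CPM) and at ZT12 for Mrpl54 (17.5 CPM).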

How the results depend on the processing

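The counts are of members called, and they are set against all transcripts only where this is stated. Elsewhere a change in the count cannot be told apart from a change over all genes. For the NRF rhythm (26), counts were 0 with the Lomb-Scargle periodogram alone, 13 without ZT8, 13 without ZT20, 16 without ZT24 and 11 to 15 without a replicate. Over all transcripts the main test called 4467. In the same settings 0, 2339, 3186, 2936 and 2074 to 3240 were called, so calls also fell over all transcripts. For the DRF rhythm (0), 2 were called by the 24-h cosine in limma and 2 without ZT4, and 0 without any replicate. For the rhythm difference (11), counts were 19 with library trends removed, 4 without ZT0, 6 without ZT4, 6 without ZT8, 4 without ZT12 and 1 to 10 without a replicate. For the mean level (9), counts were 1 with library trends removed, 17 without the 2 libraries that stood apart, 15 without ZT16, 4 without ZT0 and 2 to 6 without a replicate. With library trends removed, ZT0 gave 12 (7), ZT16 gave 5 (8) and ZT20 gave 1 (0). Without the 2 libraries, ZT0 gave 12, ZT4 gave 7 (2), ZT12 gave 1 (0), ZT16 gave 0 and ZT20 gave 1. Without a replicate, ZT0 gave 2 to 8, ZT4 gave 0 and ZT16 gave 0 to 16, with 0 at the other times. For ZT24 against ZT0 in NRF (7), counts were 1 with trends removed, 15 without the 2 libraries and 0 without any replicate. In DRF (0) they were 1, 1 and 0. The replicate block gave 11 for the rhythm difference, 9 for the mean level, 6 at ZT0 and 8 at ZT16, and it moved no count past 1.5 times. The numbers do not pair the mice, since the labels tie them to no litter or day, the deviations of same-numbered mice correlated at a median of -0.0044, and 3 of 28 DRF mice correlated best with the NRF mouse of their number. The alternatives for ZT24 against ZT0, for amplitudes, and voom weights (12 and 9) were chosen after seeing the data. Of the results of single genes under an alternative, 442 kept their side of the threshold, 95 lost the call, 3 gained it and 0 changed direction. The cause of these shifts was not tested. With 4 mice per group and SDs near 0.1, small amplitudes may go uncalled.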
